A study of Mus musculus with 8 samples.

Results

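Resident macrophages are long-lived phagocytes that sit between the fibres and along the vessels of a muscle, and 10 genes that mark them were followed in the tibialis anterior (TA) of mice that lost Sdhc in muscle fibres. The 10 genes were taken from a table of 23930 targets, in which each gene is read by 1 amplicon. They are Pf4, Lyve1, Cd163, Mrc1, F13a1, Cbr2 and Folr2, given as markers of resident cells, Csf1r, the receptor that macrophages depend on, and Lyz2 and Tyrobp, which are shared by myeloid cells. Pf4 was chosen by its RPM values in these 8 libraries, which were lower in KO, and the others were listed with results of the same libraries known. The KO against WT values of the 10 genes are therefore a description, and no p-value is attached to them.

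The KO group (HSA-Cre/Lox-SDHC) held 4 libraries from mice in which Sdhc carries loxP sites and tamoxifen switches on HSA-Cre, a Cre recombinase driven by the promoter of skeletal muscle actin. The WT group (HSA-Cre/No Lox) held 4 libraries from littermates that carry HSA-Cre without a floxed Sdhc. Both groups were C57/B6 mice, both were given tamoxifen at 12 weeks of age, and the TA was collected 3 weeks after it. The KO genotype labels name the strain with a rising number after C57BL/, where the protocol names C57/B6 for all mice. The Cre is driven in muscle fibres, so the macrophages were not the cells targeted. The RNA came from whole muscle, in which fewer cells of a type and less RNA per cell cannot be told apart. Values are in RPM, the reads of a target scaled to the reads on all targets of its library, and levels are compared between libraries and not between genes, since amplicons differ in efficiency.

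As background, tissue macrophages take up dying cells, iron-bearing haemoglobin and matrix fragments, and they need signalling through Csf1r, whose ligands are Csf1 and Il34. Cells resident in a tissue carry scavenger and endocytic receptors such as Cd163, Mrc1, Lyve1 and Folr2. Tyrobp and Lyz2 are found in nearly all cells of the myeloid lineage. Osteoclasts, which resorb bone, arise from the same lineage and also use Csf1r and Tyrobp, and Acp5, their acid phosphatase, is a standard marker of them.

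Of the 10 genes, 7 had a promoter window in RefSeq (GRCm38.p6), which runs from 250 bases before to 50 bases after the start. Promoters were searched on both strands for GAGGAA, the PU box bound by the myeloid factor PU.1, and for AGGAAG, a hexamer of the same ETS family. The motifs overlap, since GAGGAAG holds both. Pf4, Mrc1, Cbr2 and Lyz2 are shown because the results turn on them: Pf4 led the choice of genes, Mrc1 and Cbr2 differed from it across libraries, and Lyz2 is the pan-myeloid gene with the most reads. Capitals mark matches to either motif.
Pf4 (chr5:90772185-90772484, plus strand): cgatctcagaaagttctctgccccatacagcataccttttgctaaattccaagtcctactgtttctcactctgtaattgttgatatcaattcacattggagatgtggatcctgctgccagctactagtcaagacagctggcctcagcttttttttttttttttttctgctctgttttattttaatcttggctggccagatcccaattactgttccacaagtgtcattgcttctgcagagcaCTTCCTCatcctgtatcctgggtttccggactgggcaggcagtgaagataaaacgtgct
Mrc1 (chr2:14229164-14229463, plus strand): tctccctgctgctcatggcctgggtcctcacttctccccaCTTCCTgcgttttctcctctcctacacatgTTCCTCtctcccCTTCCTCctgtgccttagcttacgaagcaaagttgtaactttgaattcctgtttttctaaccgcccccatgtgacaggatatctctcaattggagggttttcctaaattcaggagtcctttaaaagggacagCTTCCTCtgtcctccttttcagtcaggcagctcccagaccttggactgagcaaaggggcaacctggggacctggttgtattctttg
Cbr2 (chr11:120731972-120732271, minus strand): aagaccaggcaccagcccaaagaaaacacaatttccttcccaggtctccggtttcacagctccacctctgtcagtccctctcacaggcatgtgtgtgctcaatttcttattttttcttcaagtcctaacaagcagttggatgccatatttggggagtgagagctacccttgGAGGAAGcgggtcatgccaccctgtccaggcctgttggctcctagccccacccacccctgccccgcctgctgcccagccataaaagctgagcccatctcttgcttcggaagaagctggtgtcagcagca
Lyz2 (chr10:117282223-117282522, minus strand): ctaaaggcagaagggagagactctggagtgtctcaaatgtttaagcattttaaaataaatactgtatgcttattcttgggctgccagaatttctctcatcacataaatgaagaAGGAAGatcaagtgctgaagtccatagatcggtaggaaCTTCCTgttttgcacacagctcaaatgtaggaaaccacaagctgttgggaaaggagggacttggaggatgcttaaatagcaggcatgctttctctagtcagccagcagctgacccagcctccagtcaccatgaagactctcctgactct
Pf4 and Cbr2 each held 1 PU box, Mrc1 held 3 and Lyz2 held 0 with 2 copies of AGGAAG. Over the 7 genes, 4 had a PU box in a window and 6 had AGGAAG, while 28.3% and 35.4% of all 32851 windows of 300 bases held them. The first count is by gene, and F13a1 and Folr2 had more than 1 window, while the shares are by window, so they are not like for like. The 3 windows of Acp5 held neither. These are matches of letters and say nothing of binding in this muscle.

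The libraries held 5983175 to 8639420 reads in KO and 7000920 to 9119006 reads in WT. Sdhc, the targeted gene, stood at 16.9 to 54.3 RPM in KO and 737 to 853 RPM in WT (log2 fold change -4.68, limma with BH adjustment, adjusted p = 1.06e-05), so the 8 libraries went with their labels. Fast fibre genes such as Acta1, Tnnt3 and Myh4 were abundant in every library, with a sum over 8 genes of 142800 to 193700 RPM in KO and 131900 to 187300 RPM in WT. WT1 and WT4 stood apart in bone genes. Acp5, Mmp9 and Ctsk, a phosphatase and proteases of osteoclasts, summed to 2.84, 5.91, 6.44 and 1.04 RPM in KO1 to KO4 and to 221, 28.0, 10.5 and 555 RPM in WT1 to WT4. Results are therefore also given without WT1 and WT4, a choice made after these values were seen. Of the 11004 targets whose mean reached 1 RPM, 3 passed limma's threshold, all lower in KO (0.0273%).

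All 10 genes averaged lower in KO than in WT, where 59.2% of all tested targets had a log2 fold change below 0. Their median log2 fold change was -1.11, beside -0.05 over all tested targets. The summed level of the 10 genes was 74.2, 44.0, 71.3 and 46.2 RPM in KO1 to KO4 and 136, 102, 108 and 222 RPM in WT1 to WT4, without overlap. The 7 resident markers alone summed to 22.9 to 53.0 RPM in KO and 46.4 to 75.2 RPM in WT, and these sums overlapped. Such sums are led by the genes with the most reads, Lyz2 and Cbr2 for the 10 genes and Cbr2 for the resident markers. Cbr2 alone held 11.0 to 28.6 RPM in KO and 8.86 to 47.0 RPM in WT. The sum without Cbr2 was not taken, so the overlap is not read for the other resident markers. In 5 genes, Pf4, Lyve1, F13a1, Folr2 and Lyz2, every KO library lay below every WT library, as in 4.56% of all tested targets. In the other 5 the groups overlapped, and 0 of the 10 had every KO library above every WT library (0.536% of targets). By limma and by edgeR 0 of the 10 passed the adjusted threshold (edgeR called 0.00909% of all targets lower), and by DESeq2 5 did (1.32% called lower). In limma 8 were lower and 0 higher at an unadjusted p under 0.05, against 8.56% lower and 0.663% higher over all targets. These counts come from the contrast that guided the choice, so nothing is read from them.

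**Figure D1:**
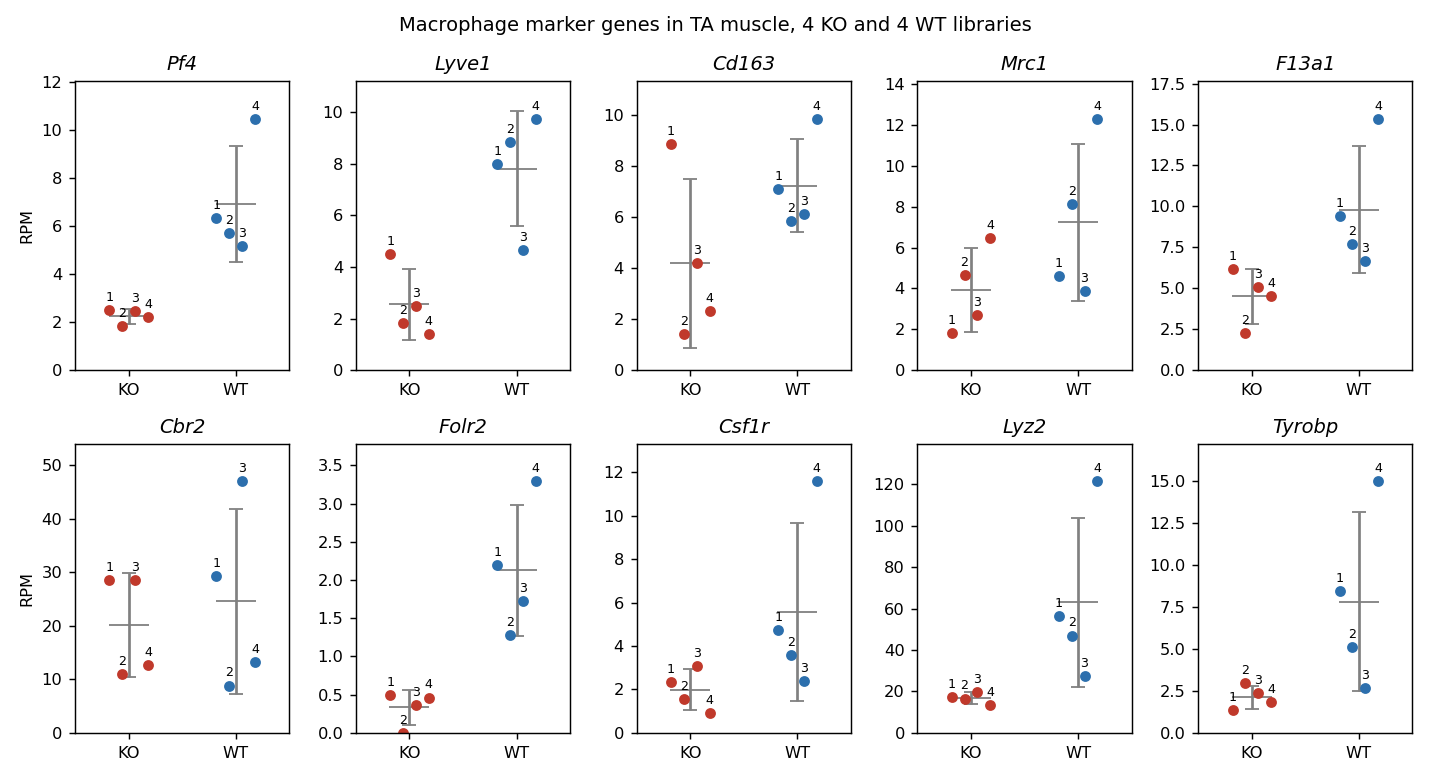
Level in RPM (vertical axis, from 0) of each of the 10 macrophage marker genes in KO (left, red) and WT (right, blue) libraries, with replicate numbers beside the points, the mean as a bar and the SD as whiskers (n = 4 each). Pf4 sits at 1.83 to 2.51 RPM in KO and 5.19 to 10.5 RPM in WT, while Cbr2 overlaps, at 11.0 to 28.6 RPM in KO and 8.86 to 47.0 RPM in WT.

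Pf4 encodes platelet factor 4 (CXCL4), a chemokine of platelets and of resident macrophages, and lies on chromosome 5 (90772435 to 90773383, plus strand, GRCm38). It stood at 2.51, 1.83, 2.48 and 2.20 RPM in KO1 to KO4 and at 6.36, 5.71, 5.19 and 10.5 RPM in WT1 to WT4. KO libraries lay close together, with a mean of 2.25 ± 0.315 RPM against 6.94 ± 2.41 RPM in WT (SD, n = 4 each), and the log2 fold change was -1.25 (SE 0.21). WT2 and WT3, the WT libraries with the least Acp5, still carried more than 5 RPM and more than any KO library. The values rest on 13 to 20 reads in KO and 39 to 86 reads in WT. The exact Poisson 95% intervals, which cover counting error only, reached up to 4.14 RPM in KO1 and down to 3.69 RPM in WT3. The intervals of these nearest libraries thus overlapped, which by itself does not show that their counts agree within counting error.

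Lyve1, the receptor for the matrix sugar hyaluronan found on perivascular macrophages and lymphatic vessels, lies on chromosome 7 (110850607 to 110863239, minus strand). Its levels were 4.51, 1.83, 2.48 and 1.39 RPM in KO1 to KO4 and 8.01, 8.86, 4.66 and 9.75 RPM in WT1 to WT4. The means were 2.55 ± 1.38 RPM in KO and 7.82 ± 2.22 RPM in WT (SD, n = 4 each), and the log2 fold change was -1.35 (SE 0.27). The groups did not overlap, but KO1 and WT3 were separated by less than the counting error of either, at 27 and 35 reads. Among other lymphatic endothelial genes, 5 were in the table and 0 of the 4 tested passed in limma, edgeR or DESeq2, with 1 at an unadjusted p under 0.05 in limma. Flt4, the lymphatic VEGF receptor, stood at 6.13 to 8.69 RPM in KO and 6.65 to 9.87 RPM in WT (log2 fold change -0.15, limma with BH, adjusted p = 0.898). Pdpn, podoplanin, stood at 1.41 to 3.01 RPM in KO and 2.53 to 6.82 RPM in WT (-0.75, limma with BH, adjusted p = 0.277). Reln, a secreted matrix protein, stood at 4.18 to 5.32 RPM in KO and 3.86 to 8.41 RPM in WT (-0.41, limma with BH, adjusted p = 0.625). Mmrn1, multimerin of lymphatic endothelium and platelets, lay under the filter with 2 to 3 reads in KO and 7 to 13 reads in WT, without overlap. The summed level of those 5 genes, without Lyve1, was 15.6 to 17.7 RPM in KO and 20.2 to 28.6 RPM in WT, and its part in the Lyve1 values was not tested.

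Cd163, the scavenger receptor for haemoglobin bound to haptoglobin, lies on chromosome 6 (124304656 to 124330527, plus strand) and did not separate the groups. It stood at 8.86, 1.41, 4.21 and 2.32 RPM in KO1 to KO4 and at 7.13, 5.86, 6.12 and 9.87 RPM in WT1 to WT4. KO1 was above WT1, WT2 and WT3, and the KO libraries spread 6.30-fold, where the WT libraries spread 1.69-fold. The means were 4.20 ± 3.32 RPM in KO and 7.24 ± 1.83 RPM in WT (SD, n = 4 each). The log2 fold change was -0.85 (SE 0.35) and ran from -1.23 without KO1 to -0.55 without KO2. Hmox1, the haem oxygenase that degrades the haem so taken up, averaged 5.61 ± 0.399 RPM in KO and 9.41 ± 4.39 RPM in WT (SD, n = 4 each; log2 fold change -0.56, limma with BH, adjusted p = 0.522).

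F13a1, the A subunit of the fibrin-crosslinking factor XIII, and Folr2, folate receptor beta, followed Pf4. F13a1 (chromosome 13, 36867178 to 37050244, minus strand) stood at 6.18, 2.25, 5.07 and 4.51 RPM in KO1 to KO4 and at 9.43, 7.71, 6.65 and 15.4 RPM in WT1 to WT4. KO and WT did not overlap, although KO1 and WT3 lay near each other, and the log2 fold change was -0.97 (SE 0.27). Folr2 (chromosome 7, 101839988 to 101857194, minus strand) rested on 3, 0, 3 and 4 reads in KO1 to KO4 and on 20, 9, 13 and 27 reads in WT1 to WT4. At 0.501, 0, 0.371 and 0.463 RPM its KO libraries stood at or about the floor of 3 reads, which is 0.347 to 0.501 RPM there, while WT held 2.19, 1.29, 1.73 and 3.29 RPM. It reached the mean of 1 RPM needed for the fit through its WT level. Its fitted log2 fold change was set by the pseudocount, at -1.21 with 1 RPM, -2.57 with 0.1 RPM and -0.41 with 5 RPM.

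Mrc1, the mannose receptor CD206, and Cbr2, a carbonyl reductase, showed a different order of libraries. Mrc1 (chromosome 2, 14229392 to 14332057, plus strand) stood at 1.84, 4.64, 2.72 and 6.48 RPM in KO1 to KO4 and at 4.61, 8.14, 3.86 and 12.3 RPM in WT1 to WT4. Cbr2 (chromosome 11, 120729489 to 120732114, minus strand) stood at 28.6, 11.0, 28.6 and 12.6 RPM in KO1 to KO4 and at 29.3, 8.86, 47.0 and 13.3 RPM in WT1 to WT4. In both groups Mrc1 was higher in replicates 2 and 4 and Cbr2 in replicates 1 and 3. The Cbr2 means were 20.2 ± 9.72 RPM in KO and 24.6 ± 17.3 RPM in WT (SD, n = 4 each), and its log2 fold change of -0.13 (SE 0.44) had a 95% interval from -1.08 to 0.82. Its sign turned without KO2, KO4, WT1 or WT3, and with WT3 left out the value was 0.26. The Mrc1 log2 fold change was -0.72 (SE 0.34), with a 95% interval from -1.46 to 0.016.

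The order of Mrc1 and Cbr2 went with sex as the RNA shows it. Xist, the transcript of the inactive X chromosome, stood at 117 and 92.0 RPM in KO2 and KO4 and at 102 and 112 RPM in WT2 and WT4, and was listed at 0 in the other 4 libraries. Ddx3y, a Y-linked helicase, stood at 90.3 and 103 RPM in KO1 and KO3 and at 105 and 115 RPM in WT1 and WT3, and was listed at 0 in the others. All 4 libraries with Xist held 8.86 to 13.3 RPM of Cbr2, and all 4 with Ddx3y held 28.6 to 47.0 RPM. The labels do not state sex, this order was noticed in the values, and the part of sex was not tested. Each group held 2 libraries of each kind. Of the 10 genes, 2 (Mrc1 and Cbr2) kept one direction in both groups. In KO alone, the 2 libraries with Ddx3y lay above the 2 with Xist in 7 genes, Pf4, Lyve1, Cd163, F13a1, Cbr2, Csf1r and Lyz2. In Pf4 they held 2.51 and 2.48 RPM in KO1 and KO3 against 1.83 and 2.20 RPM in KO2 and KO4. In WT, Pf4, Cd163, F13a1, Csf1r and Lyz2 did not split by Xist and Ddx3y, and Lyve1 was higher in the libraries with Xist. The share of all targets with such splits was not counted, so nothing is read from these counts.

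**Figure D2:**
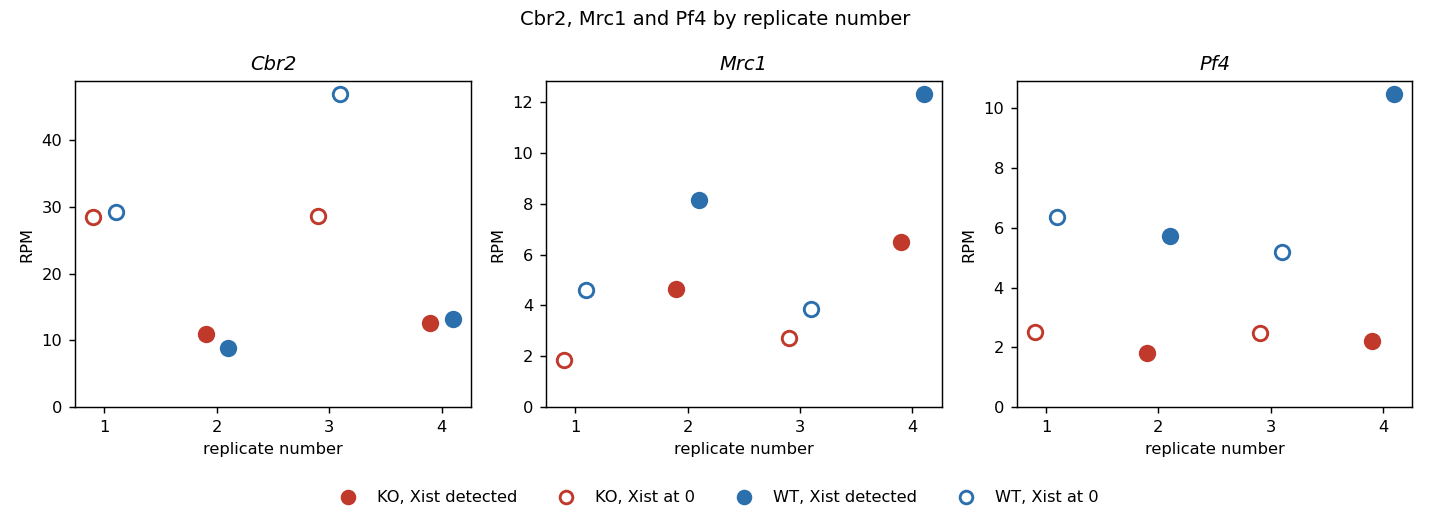
Level in RPM (vertical axes, from 0) of Cbr2, Mrc1 and Pf4 against the replicate number in the labels, with KO in red, WT in blue, and filled points for libraries with Xist reads. Cbr2 is at 28.6 RPM or more in replicates 1 and 3 and at 13.3 RPM or less in replicates 2 and 4 of both groups, while Pf4 separates KO from WT at every number.

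Csf1r, the receptor tyrosine kinase for Csf1 and Il34, lies on chromosome 18 and rested on 8 to 25 reads in KO and 18 to 95 reads in WT. It stood at 2.34, 1.55, 3.09 and 0.926 RPM in KO1 to KO4 and at 4.72, 3.57, 2.40 and 11.6 RPM in WT1 to WT4, with a log2 fold change of -1.01 (SE 0.36). KO3 lay above WT3, and WT4 carried more than any other library. Its ligand Csf1 averaged 11.7 ± 1.83 RPM in KO and 15.8 ± 2.83 RPM in WT (SD, n = 4 each; log2 fold change -0.40, limma with BH, adjusted p = 0.453). Il34, the other ligand, was at 6.52, 6.89, 5.07 and 6.83 RPM in KO and 7.90, 8.71, 10.1 and 9.87 RPM in WT (-0.47, limma with BH, adjusted p = 0.301), without overlap between the groups.

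Lyz2, lysozyme, and Tyrobp, the signalling adaptor DAP12, were the pan-myeloid genes. Lyz2 (chromosome 10, 117277331 to 117282321, minus strand) averaged 16.9 ± 2.69 RPM in KO and 63.0 ± 40.7 RPM in WT (SD, n = 4 each), and the log2 fold change was -1.65 (SE 0.32). Tyrobp (chromosome 7, 30413760 to 30417585, plus strand) averaged 2.12 ± 0.691 RPM in KO and 7.81 ± 5.34 RPM in WT (SD, n = 4 each), with -1.32 (SE 0.36). WT libraries spread 4.41-fold in Lyz2 and 5.63-fold in Tyrobp, 4.83-fold in Csf1r, and among the resident markers from 1.69-fold in Cd163 and 2.02-fold in Pf4 to 3.19-fold in Mrc1 and 5.31-fold in Cbr2. Tyrobp in WT3, at 2.66 RPM, was below KO2 at 2.95 RPM, while Lyz2 in WT3, at 27.5 RPM, was above every KO library. Lyz2 has a close paralog in Lyz1, and how reads common to both were assigned is not given in the sources. The amplicon listed as Lyz1 stood at 0.371 to 1.39 RPM in KO and 0.399 to 6.21 RPM in WT.

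Resident and pan-myeloid markers were then set side by side in each library. The mean log2(RPM + 1) of Pf4, Lyve1 and Cd163 was 2.53, 1.42, 1.99 and 1.55 in KO1 to KO4 and 3.02, 2.94, 2.65 and 3.46 in WT1 to WT4. That of Lyz2 and Tyrobp was 2.72, 3.06, 3.07 and 2.68 in KO1 to KO4 and 4.54, 4.10, 3.35 and 5.47 in WT1 to WT4. Both means were lower in every KO library than in any WT library. The resident mean less the pan-myeloid mean was -0.19, -1.64, -1.08 and -1.13 in KO1 to KO4 and -1.52, -1.16, -0.70 and -2.0 in WT1 to WT4, and these overlapped. The averages were -1.01 ± 0.599 in KO and -1.35 ± 0.552 in WT (SD, n = 4 each), a difference of 0.34 that is smaller than the spread within either group. It was 0.07 without KO1, 0.12 without WT4 and -0.08 without WT1 and WT4. It was 0.55 without KO2 and 0.55 without WT3, where the WT values had an SD of 0.424. Likewise Pf4 came to 14.3, 11.0, 12.4 and 16.4% of the Lyz2 level in KO1 to KO4 and to 11.3, 12.2, 18.8 and 8.63% in WT1 to WT4. A lower level of resident markers relative to pan-myeloid markers in KO was not seen in these libraries.

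Acp5 spread more widely over the WT libraries than any resident marker. It stood at 1.67, 3.52, 3.09 and 0.347 RPM in KO1 to KO4 and at 130, 16.7, 4.66 and 329 RPM in WT1 to WT4 (chromosome 9, 22126727 to 22135711, minus strand). The WT libraries thus spread 70.7-fold in Acp5, against 1.69-fold in Cd163 to 5.31-fold in Cbr2 over the 7 resident markers. The mean of WT1 and WT4 was 21.5 times that of WT2 and WT3 for Acp5, 3.00 times for Tyrobp, 2.73 times for Csf1r and 2.38 times for Lyz2. For Folr2 the same ratio was 1.82, for F13a1 1.73, for Pf4 1.54, for Cd163 1.42, for Mrc1 1.41, for Lyve1 1.31 and for Cbr2 0.762. WT3 was the library in which this differed most plainly, with Acp5 at 4.66 RPM, near the 3.52 RPM of KO2, and Pf4 at 5.19 RPM, about as high as in WT2. The resident mean less Acp5, on the log2(RPM + 1) scale, averaged 0.36 ± 0.921 in KO and -2.49 ± 2.37 in WT (SD, n = 4 each). That difference of 2.85 was 0.89 without WT1 and WT4.

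**Figure D3:**
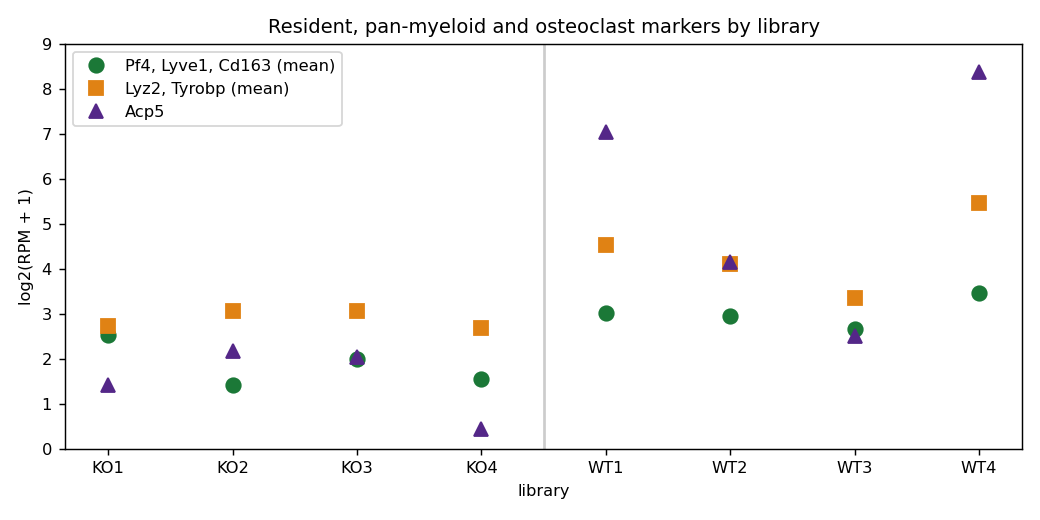
Mean log2(RPM + 1) of Pf4, Lyve1 and Cd163 (circles), mean of Lyz2 and Tyrobp (squares) and level of Acp5 (triangles) in each KO library (left of the line) and WT library (right of it). Circles span 1.42 to 2.53 in KO and 2.65 to 3.46 in WT, while triangles span 0.43 to 2.18 in KO and 2.50 to 8.37 in WT.

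The order of the WT libraries from high to low was WT4, WT1, WT2 and WT3 for Acp5, and 5 of the 10 genes, Pf4, F13a1, Csf1r, Lyz2 and Tyrobp, had the same order. WT4 was the highest WT library in 9 of the 10, all but Cbr2. The shares of all targets with that order, or highest in WT4, were not counted, so nothing is read from these counts. Without WT1 and WT4, the log2 fold changes were -0.99 for Pf4, -1.15 for Lyve1, -0.63 for F13a1, -1.06 for Lyz2 and -0.63 for Tyrobp. They were -0.635 for Cd163, -0.54 for Mrc1, -0.46 for Csf1r and -0.16 for Cbr2, and Folr2 fell under the filter. The median of these 9 genes was -0.63, beside -0.10 over all tested targets. All 4 KO libraries lay below both WT2 and WT3 in 5 genes, Pf4, Lyve1, F13a1, Folr2 and Lyz2. The same held in 10.9% of the 11004 targets of the main fit, which Folr2 entered through its WT level. These libraries are part of the contrast that guided the choice, so nothing is read from this count. How much of the pan-myeloid levels came from osteoclasts was not tested.

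After the values of each gene were centred on their group mean, Pearson's r of log2(RPM + 1) was computed over the 8 libraries. Within KO or WT alone r was not taken. The spread differed between the groups, so they did not weigh alike in r. The SD on this scale was 0.794 in KO and 2.67 in WT for Acp5. It was 0.21 and 0.882 for the mean of Lyz2 and Tyrobp, and 0.498 and 0.335 for that of Pf4, Lyve1 and Cd163. From high to low the KO order was KO1, KO3, KO4 and KO2 for Pf4 and KO2, KO3, KO1 and KO4 for Acp5. The genes of a library share its depth and its tissue composition, so r is given without a p-value. Pf4 had r of 0.91 with Csf1r, 0.91 with Lyz2, 0.89 with F13a1, 0.86 with Folr2 and 0.76 with Acp5, and -0.15 with Cbr2. Lyz2 and Tyrobp had r of 0.92 and 0.95 with Acp5, while Cd163 had 0.25 and Lyve1 0.52. Mrc1 and Cbr2 had r of -0.85 with each other. Among 8257 genes with a mean of at least 5 RPM, those most like Pf4 were Emp2 (0.99), Crip1 (0.98), Serpinh1 (0.97), the collagen chaperone, Cd248 (0.97), a surface protein of stromal cells, and Apoe (0.96), an apolipoprotein made by macrophages. Those most like Lyz2 were Fat1 (0.99), Laptm5 (0.99), a lysosomal protein of white blood cells, Col5a2 (0.98), Rcn3 (0.98) and Ptgis (0.98). Those most like Acp5 were Mmp9 (0.99), Spp1 (0.99), Mmp2 (0.99), Col1a1 (0.99) and Col1a2 (0.98), proteases and matrix genes of bone and other connective tissue.

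Other genes high in resident macrophages did not pass the test. Of 28 listed, 26 were in the table and 13 were tested. Of these 0 passed in limma, edgeR or DESeq2, 6 were lower at an unadjusted p under 0.05 and 0 higher, and 11 had values below 0 (median log2 fold change -0.39). With no filter 22 of the 26 were below 0 and the median was -0.33. Over all tested targets 59.2% lay below 0, 8.56% were lower at an unadjusted p under 0.05 and DESeq2 called 1.32% lower, and these shares stand behind the counts of every list. The filter on the mean favours a negative value in a gene that reached it through WT alone, with a KO mean under 1 RPM. Such genes were 2 of the 13 tested here, 5 of 17 general myeloid, 2 of 3 monocyte, 4 of 9 osteoclast, 1 of 2 platelet and 3 of 6 mast and dendritic cell genes, so their counts and medians are descriptions. Maf, a transcription factor of macrophages that many other cells also express, was at 243, 199, 202 and 198 RPM in KO and 217, 178, 226 and 198 RPM in WT (0.04, limma with BH, adjusted p = 0.966). Sepp1, selenoprotein P, was at 235 to 270 RPM in KO and 237 to 282 RPM in WT (-0.07, limma with BH, adjusted p = 0.929). Retnla, a secreted protein of alternatively activated macrophages and of adipose tissue, was at 5.32 to 10.4 RPM in KO and at 9.87, 45.0, 7.85 and 35.5 RPM in WT (-1.36, limma with BH, adjusted p = 0.272). Hpgd, which degrades prostaglandins, was at 0 to 0.703 RPM in KO and 0.532 to 3.05 RPM in WT (-1.06, limma with BH, adjusted p = 0.189). KO1, with the most Maf in KO, was also the highest KO library in Pf4, Lyve1, Cd163, F13a1 and Folr2. These are 5 of the 10 marker genes, and KO1 was the lowest KO library in Mrc1 and Tyrobp. Its Pf4 was 2.51 RPM, beside 2.48 RPM in KO3, within counting error. The share of all targets highest in KO1 was not counted.

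General myeloid genes averaged lower in KO without passing limma's threshold. Of 28 listed, 27 were in the table, 17 were tested and all 17 had values below 0, with a median of -0.86 beside -0.05 over all tested targets. With no filter 26 of the 27 were below 0 and the median was -0.63. Limma and edgeR called 0 of the tested genes and DESeq2 2, and 15 were lower at an unadjusted p under 0.05. Cd74, the invariant chain of antigen presentation, stood at 58.2, 51.9, 52.7 and 34.7 RPM in KO1 to KO4 and at 69.2, 109, 63.8 and 131 RPM in WT1 to WT4 (-0.86, limma with BH, adjusted p = 0.165). Cd68, a lysosomal protein of macrophages and osteoclasts, stood at 1.34, 2.81, 1.98 and 2.43 RPM in KO and at 12.4, 5.14, 2.40 and 27.7 RPM in WT (-1.61, limma with BH, adjusted p = 0.211). Lcp1, plastin of white blood cells, stood at 2.67 to 6.06 RPM in KO and at 14.7, 6.71, 4.26 and 27.3 RPM in WT (-1.20, limma with BH, adjusted p = 0.312). Cd68 and Lcp1 had the WT order of Acp5, and both groups overlapped in WT3.

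Markers of recruited monocytes and of inflammatory macrophages were scarce. Of 16 listed, 14 were in the table and 3 were tested, and 0 passed in limma, edgeR or DESeq2, with 1 at an unadjusted p under 0.05. Ccr2, the chemokine receptor of recruited monocytes, was at 1.0, 1.12, 0.495 and 0.347 RPM in KO and 2.30, 2.14, 0.932 and 2.56 RPM in WT (-0.76, limma with BH, adjusted p = 0.264). Nos2, the inducible nitric oxide synthase, was at 1.98 to 2.31 RPM in KO and 1.46 to 3.29 RPM in WT (-0.05, limma with BH, adjusted p = 0.981). Itgal, an integrin of white blood cells, was at 0.347 to 1.36 RPM in KO and 0.714 to 2.44 RPM in WT (-0.43, limma with BH, adjusted p = 0.719). The sum over the 14 genes was 5.68 to 6.48 RPM in KO and 5.06 to 12.2 RPM in WT.

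Ligands, substrates and partners of the marker genes were examined as well. All 20 were in the table, 9 were tested and all 9 had values below 0 (median -0.47), with 0 called by limma or edgeR, 2 by DESeq2 and 6 at an unadjusted p under 0.05. Fn1, fibronectin, a substrate of factor XIII, stood at 12.9, 9.0, 7.43 and 5.44 RPM in KO and 39.8, 28.9, 14.6 and 116 RPM in WT (-2.05, limma with BH, adjusted p = 0.125). Cd44, a hyaluronan receptor related to Lyve1, stood at 7.86, 5.91, 7.43 and 3.82 RPM in KO and 13.5, 16.9, 9.72 and 30.0 RPM in WT (-1.28, limma with BH, adjusted p = 0.125). Neither gene overlapped between the groups, and both were highest in WT4. Both are made by many cell types besides macrophages.

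Other cell types that make the same transcripts were checked by their markers. Platelets and megakaryocytes carry Pf4 and F13a1. Of 10 of their other genes in the table, 6 had at most 3 reads in any library, and the sum was 4.28 to 4.95 RPM in KO and 3.43 to 7.98 RPM in WT. Ppbp, the platelet basic protein and neighbour chemokine of Pf4, stood at 1.84, 1.83, 1.73 and 1.62 RPM in KO and 0.877, 1.29, 2.93 and 1.34 RPM in WT (log2 fold change 0.14, limma with BH, adjusted p = 0.932). Gp1ba, a platelet adhesion receptor, was at 0.563 to 1.27 RPM in KO and 1.0 to 2.74 RPM in WT (-0.52, limma with BH, adjusted p = 0.532). Of the 2 platelet genes tested, Ppbp and Gp1ba, 0 passed in limma, edgeR or DESeq2, and 1 had an unadjusted p under 0.05. Of 11 granulocyte genes of bone marrow, Mpo was at 0 in every library and the sum was 3.12 to 6.85 RPM in KO and 2.93 to 8.65 RPM in WT. S100a9, a calcium-binding protein of neutrophils, lay under the filter at 0.371 to 0.836 RPM in KO and 0.399 to 1.65 RPM in WT. Lcn2, the 1 granulocyte gene tested, gave -0.26 (limma with BH, adjusted p = 0.922).

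Bone and mast cell lists complete the comparison. Of 14 osteoclast genes 9 were tested, all below 0, with a median of -0.86 in limma, -2.29 in edgeR and -2.32 in DESeq2. With no filter 13 of the 14 were below 0 and the limma median was -0.61. Without WT1 and WT4 it was -0.06, over the 5 genes that then passed the filter. Limma and edgeR called 0, DESeq2 3, and 4 had an unadjusted p under 0.05. The sum over the 14 genes was 182 to 234 RPM in KO and 217 to 798 RPM in WT. Most of that sum in KO was Nfatc1. Acp5, Mmp9 and Ctsk together made 1.04 to 6.44 RPM of it in KO and 10.5 to 555 RPM in WT. Mmp9 stood at 1.17, 2.11, 2.35 and 0.116 RPM in KO and at 87.5, 9.71, 4.92 and 220 RPM in WT (-3.90, limma with BH, adjusted p = 0.125). Nfatc1, which muscle also expresses, stood at 135 to 188 RPM in KO and 143 to 197 RPM in WT (-0.08, limma with BH, adjusted p = 0.940). Of 6 tested osteoblast genes 5 were below 0, with 0 called by limma or edgeR, 4 by DESeq2 and 5 lower at an unadjusted p under 0.05, and the 9 in the table summed to 148 to 375 RPM in KO and 407 to 6103 RPM in WT. Ibsp, bone sialoprotein, stood at 0.669, 5.62, 3.09 and 0.116 RPM in KO and 85.1, 15.1, 2.66 and 154 RPM in WT (-3.48, limma with BH, adjusted p = 0.175). Of 6 tested mast and dendritic cell genes all were below 0, with 0 called by limma or edgeR, 1 by DESeq2 and 3 at an unadjusted p under 0.05. Tpsb2, a mast cell tryptase, stood at 2.34, 0.844, 1.11 and 1.74 RPM in KO and 5.04, 4.0, 5.46 and 3.65 RPM in WT (-1.17, limma with BH, adjusted p = 0.125), with WT4 the lowest of the WT libraries. Cpa3, a mast cell carboxypeptidase, stood at 0 to 1.17 RPM in KO and 1.14 to 1.95 RPM in WT (-0.66, limma with BH, adjusted p = 0.394). Zbtb46, a transcription factor of dendritic cells and endothelium, stood at 7.99 to 13.7 RPM in KO and 8.0 to 14.5 RPM in WT (-0.02, limma with BH, adjusted p = 0.998). The 8 fast fibre genes had a median of 0.12, with 3 below 0 and 0 at an unadjusted p under 0.05 or called by limma, edgeR or DESeq2. Among them Actn3, the fast-fibre actinin, gave 0.18 and Pvalb, parvalbumin, gave 0.17 (limma with BH, adjusted p = 0.80 and 0.895).

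**Figure D4:**
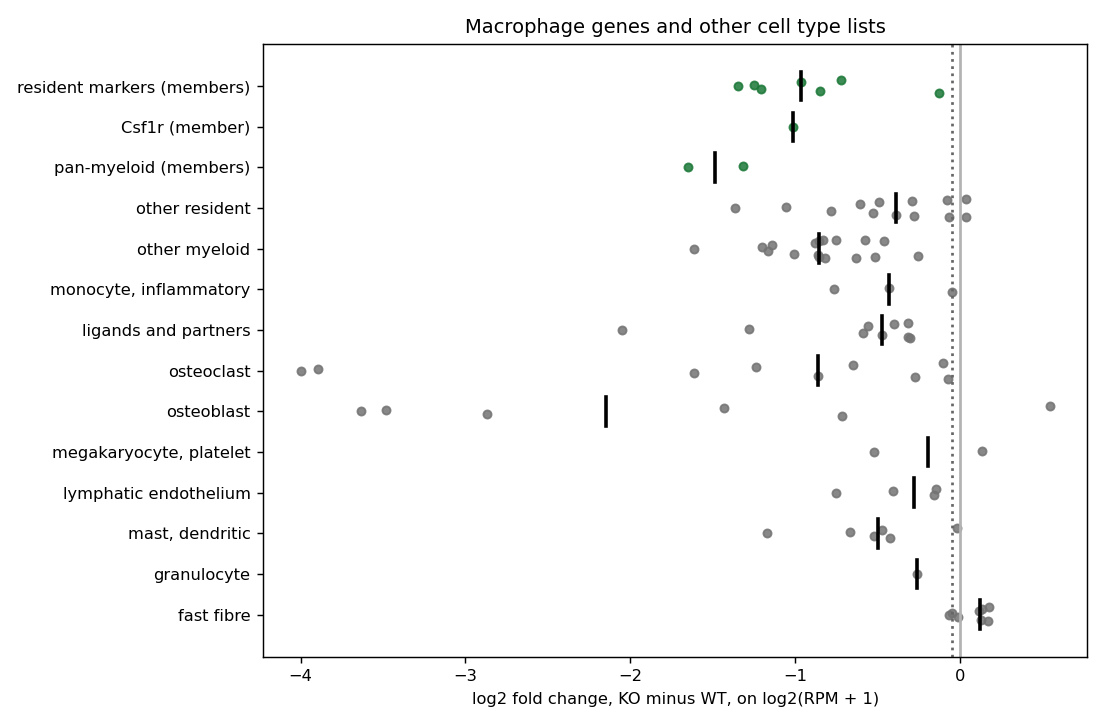
Log2 fold change, KO minus WT, on log2(RPM + 1) (horizontal axis) of each tested gene of the macrophage markers (green) and of the other cell type lists (grey), with list medians as black bars and the median over all tested targets as a dotted line. The medians are -0.97 for the 7 resident markers, -1.48 for the pan-myeloid pair, -0.39 for other resident genes and 0.12 for fast fibre genes, and the lymphatic list is drawn without Lyve1.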

How the data were processed

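The authors deposited 1 table of RPM values from the Ion AmpliSeq Transcriptome Mouse panel per the labels. Transcriptome Analysis Console is named in the submitters' processing notes. The sources used here give no aligner, genome build, filter or amplicon position. Columns were matched to libraries by barcode. Low values were whole multiples of 1 read (100.0% within 0.1 of a whole read), which gave the reads and a floor of 3 reads (0.329 to 0.501 RPM). Reads carry no molecular identifiers, so intervals and floors cover counting error only. Replicates differed beyond sampling noise (chi-square over degrees of freedom of 12.26 to 34.36). No label identifies single animals, so p-values measure the spread between libraries.

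Groups were compared with limma 3.58.1 (R 4.3.3, intensity trend, two-sided) on log2(RPM + 1), over 11004 targets whose mean reached 1 RPM, with Benjamini-Hochberg (BH) adjustment at 0.05. The pseudocount makes low genes' fold changes too small. The fit was tested on simulated data. Alternatives were pseudocounts of 0.1 and 5 RPM, no filter or a mean of 10 RPM, scaling by quantile, TMM or median ratio, a replicate block, edgeR 4.0.16 and DESeq2 1.42.0 on the recovered reads, and leaving out each library. The comparison without WT1 and WT4 was added after seeing the data.

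The marker genes, lists and tests were chosen with earlier results of these data known. Named were the marker genes, Acp5 and Sdhc, from each list the genes past the threshold or else the 2 most abundant and the 2 with the largest fold change, and the 5 genes most like Pf4, Lyz2 and Acp5. Il34, Hmox1, Lyz1, Xist, Ddx3y and the genes under the filter other than S100a9 were named after their values were seen. Gene positions are from GENCODE M21 (GRCm38), matched by symbol. Some genes are not reported here.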

Additional observations from a re-analysis of the deposited data

Results flagged for a closer look

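Values of 3 genes were flagged because 1 of 4 libraries of a group lay far from the other 3, by Dixon's gap test at its 95% critical value. Of 122 groups of 4 values examined, 3 were flagged, and chance flags about 1 in 20. Maf was highest in KO1, at 242.5 RPM, where KO2, KO3 and KO4 held 199, 202 and 198 RPM. Reln, a lymphatic endothelial gene, was lowest in WT2, at 3.857 RPM, where the other WT libraries held 7.68 to 8.41 RPM. Lcn2, a granulocyte gene, was highest in WT4, at 4.751 RPM, where the other WT libraries held 1.32 to 1.71 RPM.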

How the results depend on the processing

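The number of targets past limma's threshold, 3, was 6 with no filter, 1 with median-ratio scaling, 1 with TMM scaling, 1 with quantile scaling, 1 with edgeR, 149 with DESeq2 and 1 without WT1 and WT4. Leaving out 1 library gave 1 to 130, with 130 without WT3 and 10 without KO1. The cause was not tested. Scaling moved the split of targets at an unadjusted p under 0.05 from 942 lower and 73 higher to 759 and 347 (median ratio), 782 and 323 (TMM) and 582 and 420 (quantile).

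Same-numbered KO and WT libraries did not deviate together in every pair (r of 0.003, 0.257, 0.125 and 0.105 for numbers 1 to 4 over the tested targets), and 1 of 4 KO libraries correlated best with its own number. The numbers were therefore not taken as pairs. With the replicate number as a block, 1 target passed and all 10 marker genes stayed below 0.

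All 10 marker genes were lower in KO under both pseudocounts, every scaling, the block, edgeR and DESeq2. With a filter at a mean of 10 RPM only 2 were left, both lower. Leaving out 1 library gave 9 or 10, and 9 without WT1 and WT4, where Folr2 fell under the filter, as it did without WT4. Of 180 fold changes of marker genes under these alternatives, 176 were below 0, and the 4 above 0 were all of Cbr2. The resident minus pan-myeloid difference ranged from -0.08 to 0.55, 0.07 to 0.55 when 1 library was left out, and it moved by less than 1 SD of the replicates under each. The resident minus Acp5 difference ranged from 0.89 without WT1 and WT4 to 4.47 with DESeq2, and from 2.05 to 3.73 when 1 library was left out. The median over the 10 genes ranged from -0.58 with a pseudocount of 5 RPM to -1.52 with DESeq2. Depth limits Folr2 most, with 0 to 4 reads per KO library.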

Other observations

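Several genes of resident macrophages lay under the filter and are given as reads, chosen after their values were seen. Cd209f, a C-type lectin of resident macrophages, had 1, 1, 4 and 3 reads in KO1 to KO4 and 8, 5, 5 and 11 reads in WT1 to WT4. Siglec1, the sialic acid receptor CD169, had 2, 0, 2 and 2 reads in KO and 4, 6, 3 and 21 reads in WT. Cd209b, of the same list, went the other way, with 1, 0, 2 and 1 reads in KO and 0, 1, 0 and 0 reads in WT. Mgl2, Ccl24 and Ltc4s also lay under the filter and overlapped between the groups. Timd4, a phosphatidylserine receptor of long-lived resident cells, had 0 to 1 reads in KO and 0 to 2 reads in WT, so a difference was not detectable at this depth. Arg1, arginase of alternatively activated macrophages, had 14 reads in WT2 and was listed at 0 in the other 7 libraries.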
